A study of Oryza sativa with 12 samples.

Results

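The genes described here make the hormone gibberellin and perceive it in rice (Oryza sativa). They are 9 of the 38867 genes in the deposited table of the shoot apical meristem (SAM), chosen by locus number: CPS1, KS1, KO2, KAO, GA20ox1, GA20ox2, GA3ox2, GID1 and SLR1. All 9 loci are present in both deposited tables, SAM and leaf blade, and no symbol or description there names another gene. The series has 12 RNA-seq samples, taken from myb110 plants and wild type (WT) plants 1 month after they were moved to the field, with 3 libraries of the SAM and 3 of the newest leaf blade for each genotype. The groups compared are 3 myb110 SAM libraries and 3 WT SAM libraries, each made from a pool of 20 plants. MYB110 is a MYB transcription factor that the series links to flowering time through the clock-type factor Nhd1 and the MADS-box factor MADS15. The labels do not say what kind of allele myb110 is or which rice cultivar was used. Blade values are not analysed here, because the names of the blade columns do not give the labelled genotypes.

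Gibberellins are diterpenoid hormones that promote stem elongation, germination and reproductive growth. CPS and KS cyclise the precursor in the plastid, the cytochrome P450 enzymes KO and KAO oxidise the product, and the soluble oxygenases GA20ox and GA3ox complete the active hormone, which GA2ox enzymes inactivate. The bound hormone lets the receptor GID1 grip the DELLA protein SLR1, a repressor of growth that is then degraded. In rice, loss of GA20ox2 gives the semidwarf stature used in breeding, and loss of GID1 gives severe dwarfs.

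Library totals in the SAM table lay between 14112966 and 18896372 counts, deep enough to test 23167 genes. The locus taken as MYB110 (Os10g0478300, annotated MYB4) held 0, 0 and 0 counts in the myb110 libraries, against 6, 0 and 1 in the WT libraries, so it is too rare in this tissue to check the genotype labels. Its identity with the mutated gene was taken from general knowledge. The tissue was checked with 6 meristem markers and 8 leaf mesophyll markers, and none of the 14 was at 0. The meristem markers, KNOX genes among them, summed to between 484 and 512 CPM (counts scaled to library size) in myb110 libraries and between 497 and 505 CPM in WT libraries. The mesophyll markers summed to between 156 and 165 CPM in myb110 libraries and between 462 and 497 CPM in WT libraries. All 8 mesophyll markers fell in myb110, where 11.7% of all genes tested fell. Their median log2 change was -1.12, and the changes ran from -2.18 for CAB2R to -0.37 for GAPB. RBCS2 and RBCS4 were rare, at 2.61 and 2.96 CPM on average in WT, so they add little to the sums. Of the meristem markers OSH1 fell by 0.09 and 5 did not pass. These shifts accompany every gibberellin gene result below, and their part in those results was not tested. In such bulk tissue, fewer cells of a type and less RNA per cell cannot be told apart.

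Of the 9 genes, those that changed in the mutant SAM were lower. CPS1, KS1 and KAO, enzymes of the early pathway, and the receptor gene GID1 fell to between 0.66 and 0.76 of their WT level, and GA20ox1 fell to 0.91. KO2, GA20ox2 and SLR1 did not pass the test, and GA3ox2 had too few counts to enter it. Of the 8 members tested by edgeR's quasi-likelihood test, 5 fell at an adjusted p below 0.05 and none rose. The count that changed was 4 in DESeq2 and 3 in limma on log2(FPKM + 1) with no filter. Over all 23167 genes tested, 11.7% fell, 10.9% rose and 22.6% changed in either direction. The median log2 change of the 8 was -0.26, against 0.00 for all genes tested. In 6 of the 8, every myb110 library lay below every WT library, which was so for 18.3% of all genes, while 36.1% of all genes had genotypes that did not overlap in either direction. The 9 genes were chosen with earlier results of these data known, which limits such comparisons with all genes.

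**Figure D1:**
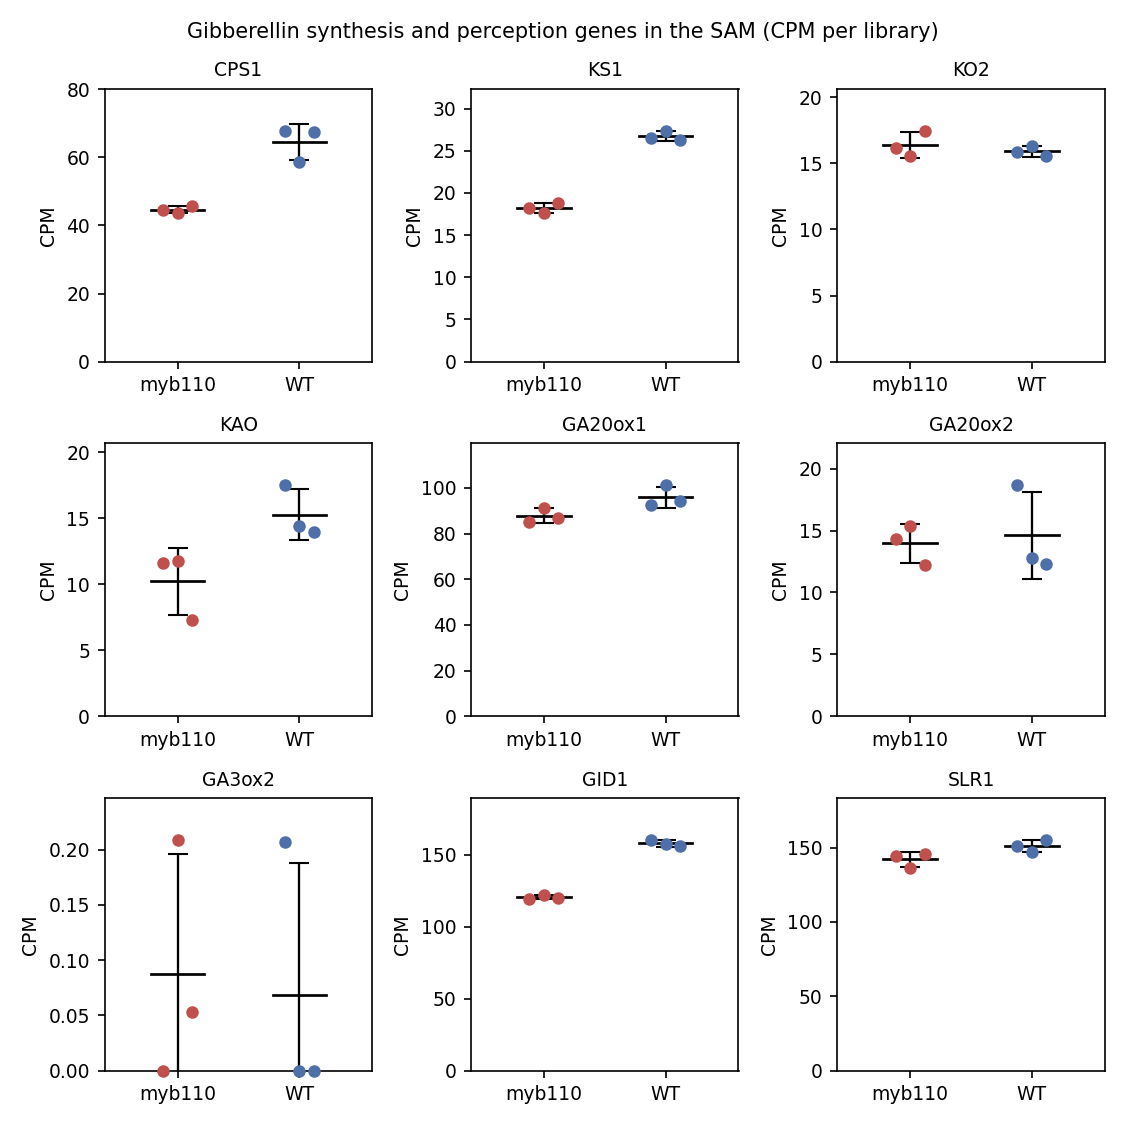
CPM (vertical axes, from 0) of the 9 gibberellin genes in each SAM library, with myb110 left of WT. Points are libraries, and the bar and whiskers are the mean ± SD of 3 libraries. CPS1, KS1 and GID1 show a clear gap between the genotypes, and KAO shows a gap that is small beside its spread. KO2 and GA20ox2 overlap, and GA3ox2 stays at 0.21 CPM or less.

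CPS1 (Os02g0278700, chromosome 2) encodes ent-copalyl diphosphate synthase, the first committed enzyme. Its CPM were 44.6, 43.7 and 45.6 in the myb110 libraries, against 67.8, 58.5 and 67.3 in the WT libraries. The mutant values lay within 2 CPM of each other and all below the lowest WT value, which was that of WT replicate 2. The means were 44.6 ± 0.964 CPM in myb110 and 64.6 ± 5.24 CPM in WT (SD, n = 3 each), and CPS1 fell by 0.53 ± 0.06 (SE) on the log2 scale (edgeR adjusted p = 5.11e-09).

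KS1 (Os04g0611800, chromosome 4) encodes ent-kaurene synthase, which acts on the product of CPS1. It had 18.3, 17.6 and 18.8 CPM in the myb110 libraries, against 26.5, 27.4 and 26.3 CPM in the WT libraries. Both groups were tight, and the gap between them was several times the spread within either. The gene averaged 18.2 ± 0.578 CPM in myb110 and 26.7 ± 0.584 CPM in WT (SD, n = 3 each) and fell by 0.55 ± 0.08 on the log2 scale (edgeR adjusted p = 2.96e-06). The 95% intervals of the log2 change ran from -0.72 to -0.38 for KS1 and from -0.65 to -0.41 for CPS1. The ratio of CPS1 to KS1 in FPKM, a level per gene length, was 1.90 ± 0.0208 in myb110 and 1.88 ± 0.189 in WT (SD, n = 3 each; exact permutation test, two-sided p = 1).

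KO2 (Os06g0570100, chromosome 6, annotated CYP701A6) encodes ent-kaurene oxidase, the next enzyme of the chain. It had 16.1, 15.6 and 17.5 CPM in the myb110 libraries, against 15.9, 16.3 and 15.5 CPM in the WT libraries. The groups overlapped, though myb110 replicate 3 lay above every WT library. The log2 change was 0.05 ± 0.10, with a 95% interval from -0.15 to 0.24 (edgeR adjusted p = 0.790), so its interval does not meet those of CPS1 and KS1. The ratio of KS1 to KO2 in FPKM was 0.876, 0.878 and 0.832 in the myb110 libraries, against 1.295, 1.299 and 1.309 in the WT libraries. The 2 groups of ratios were far apart, and the exact two-sided permutation p of 0.1 is the smallest that 3 against 3 libraries allow. The ratio restates the separate changes of KS1 and KO2 in the same libraries and is no further evidence. The other 5 loci whose symbols begin with CYP701A, all on chromosome 6, had 0 counts in all 6 libraries, so KO2 alone of this family was detected.

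KAO (Os06g0110000, chromosome 6) encodes ent-kaurenoic acid oxidase, which makes the first gibberellin of the chain, and its loss in rice gives dwarfs. It had 11.6, 11.8 and 7.31 CPM in the myb110 libraries, against 17.5, 14.4 and 13.9 CPM in the WT libraries. The groups did not overlap, but each was spread more widely than those of CPS1 and KS1, with myb110 replicate 3 low and WT replicate 1 high. KAO averaged 10.2 ± 2.53 CPM in myb110 and 15.3 ± 1.95 CPM in WT (SD, n = 3 each) and fell by 0.59 ± 0.15 on the log2 scale (edgeR adjusted p = 0.00954). Without myb110 replicate 3 the fall was 0.38 (edgeR adjusted p = 0.0349). The call was lost in limma on log2(FPKM + 1) with no filter on low values (adjusted p = 0.0865), and the adjusted p over all alternatives ran from 6.64e-06 to 0.0865.

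GA20ox1 and GA20ox2 encode gibberellin 20-oxidases, which carry out the oxidations before the last step. GA20ox1 (Os03g0856700, chromosome 3) had 84.9, 91.3 and 86.9 CPM in the myb110 libraries, against 92.6, 101 and 94.3 CPM in the WT libraries. The highest mutant library lay just under the lowest WT library. It averaged 87.7 ± 3.28 CPM in myb110 and 96.0 ± 4.60 CPM in WT (SD, n = 3 each) and fell by 0.13 ± 0.05 on the log2 scale (edgeR adjusted p = 0.0314). That call was lost in DESeq2 (adjusted p = 0.0912), in limma on FPKM, and in edgeR when myb110 replicate 1 (adjusted p = 0.141), myb110 replicate 3 (0.104) or WT replicate 2 (0.232) was left out. Over all alternatives the adjusted p lay between 0.0223 and 0.232.

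GA20ox2 (Os01g0883800, chromosome 1, annotated 20ox2) is the semidwarf gene. It had 14.4, 15.3 and 12.2 CPM in the myb110 libraries, against 18.7, 12.8 and 12.3 CPM in the WT libraries. WT replicate 1 stood above all others, and the remaining 5 libraries overlapped. The log2 change was -0.06 ± 0.14, with a 95% interval from -0.36 to 0.24 (edgeR adjusted p = 0.815). It became 0.14 without WT replicate 1 and 0.03 without myb110 replicate 3. Per gene length, GA20ox1 was the more abundant of the pair, at 4.75 ± 0.515 times the FPKM of GA20ox2 in myb110 and 5.14 ± 1.25 times in WT (SD, n = 3 each; exact permutation test, two-sided p = 0.8).

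GA3ox2 (Os01g0177400, chromosome 1) encodes gibberellin 3-oxidase, which makes the active hormone. It held 0, 3 and 1 counts in the myb110 libraries, against 3, 0 and 0 counts in the WT libraries. No library of either genotype thus held more than 3 counts, and the gene did not reach the count filter. The ratio of myb110 to WT, scaled to depth, was 1.41, with a 95% counting interval from 0.238 to 9.61. At this depth no difference could be detected. The other 3-oxidase gene, GA3ox1 (Os05g0178100), had 0 counts in all 6 libraries.

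GID1 (Os05g0407500, chromosome 5) encodes the soluble receptor of gibberellin. It had 119, 122 and 120 CPM in the myb110 libraries, against 160, 157 and 156 CPM in the WT libraries. Relative to its level, GID1 had the smallest spread within each genotype of the 5 genes that changed, and the groups lay far apart. GID1 averaged 120 ± 1.22 CPM in myb110 and 158 ± 2.36 CPM in WT (SD, n = 3 each) and fell by 0.39 ± 0.04 on the log2 scale (edgeR adjusted p = 6.49e-11).

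SLR1 (Os03g0707600, chromosome 3) encodes the DELLA repressor that GID1 captures. It had 144, 136 and 146 CPM in the myb110 libraries, against 151, 147 and 155 CPM in the WT libraries. The mutant libraries were all lower, but the highest of them, at 145.5 CPM, lay just under the lowest WT library, at 146.9 CPM. That gap was much smaller than the spread within a genotype (SD 4.95 CPM in myb110 and 4.23 CPM in WT, n = 3 each). The log2 change was -0.09 ± 0.04 with a 95% interval from -0.16 to -0.01, and it did not pass after adjustment over all genes (edgeR unadjusted p = 0.0256, adjusted p = 0.0927). Its interval does not meet that of GID1, which ran from -0.46 to -0.32. The ratio of GID1 to SLR1 in FPKM was 0.895, 0.966 and 0.893 in the myb110 libraries, against 1.15, 1.16 and 1.08 in the WT libraries. Receptor message thus stood below repressor message in every mutant library and above it in every WT library (exact permutation test, two-sided p = 0.1, the smallest possible here). This ratio, too, restates the separate changes of GID1 and SLR1. Protein was not measured.

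**Figure D2:**
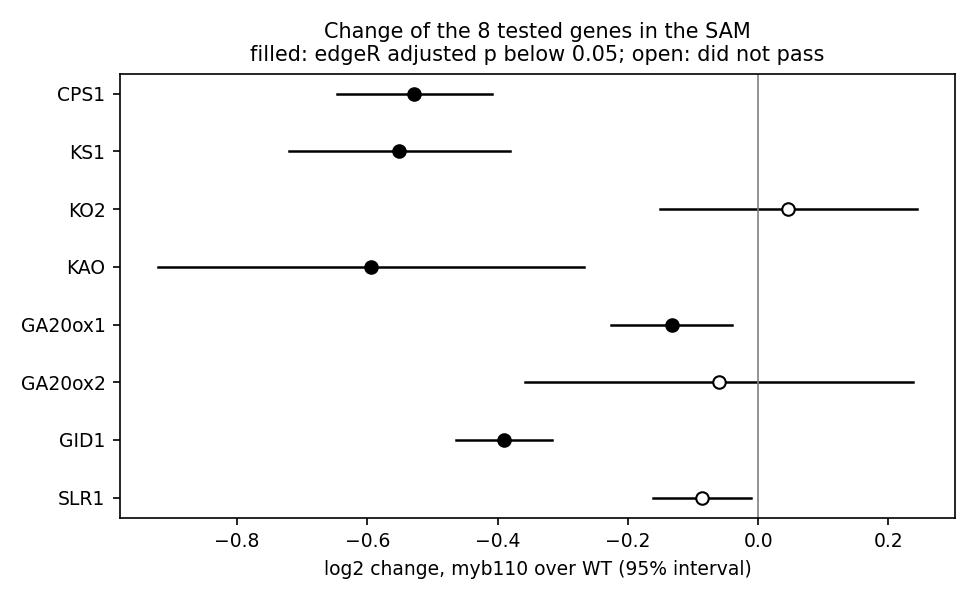
Log2 change of the 8 tested gibberellin genes, myb110 over WT (horizontal axis), with 95% intervals from edgeR over 3 libraries per genotype. Filled points passed the adjusted p of 0.05 and open points did not. CPS1, KS1 and KAO lie between -0.59 and -0.53, GID1 at -0.39, and the intervals of KO2 and GA20ox2 span 0.

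Set in order by level per length, GA20ox1 and the perception genes GID1 and SLR1 were above the other 6 genes in both genotypes. In myb110 the mean FPKM were 60.8 ± 2.11 for SLR1, 55.8 ± 0.602 for GID1 and 54.2 ± 2.11 for GA20ox1. The ranges of GID1 and GA20ox1 overlapped there. In WT they were 73.1 ± 1.01 for GID1, 64.7 ± 1.86 for SLR1 and 59.5 ± 2.90 for GA20ox1 (SD, n = 3 each), and no 2 of these neighbours overlapped. The first place therefore belonged to SLR1 in myb110 and to GID1 in WT. CPS1 came next in both, with 15.2 ± 0.333 FPKM in myb110 and 21.9 ± 1.78 FPKM in WT.

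Below these came GA20ox2 in both genotypes, with 11.5 ± 1.32 FPKM in myb110 and 12.03 ± 2.93 FPKM in WT. KO2 and KS1 changed places. In myb110, KO2 had 9.26 ± 0.563 FPKM and KS1 7.97 ± 0.256 FPKM, whereas in WT, KS1 had 11.7 ± 0.251 FPKM and KO2 8.997 ± 0.219 FPKM. KAO was the lowest of the 8 tested, with 5.30 ± 1.31 FPKM in myb110 and 7.93 ± 1.00 FPKM in WT. In WT the ranges of GA20ox2 and KS1 overlapped, as did those of KO2 and KAO, so these neighbours did not differ beyond their spread. Among the 23167 tested genes ranked by mean FPKM over the 6 libraries, GID1 was 2089th, SLR1 2164th, GA20ox1 2418th and CPS1 7978th, and KAO was 13992nd.

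**Figure D3:**
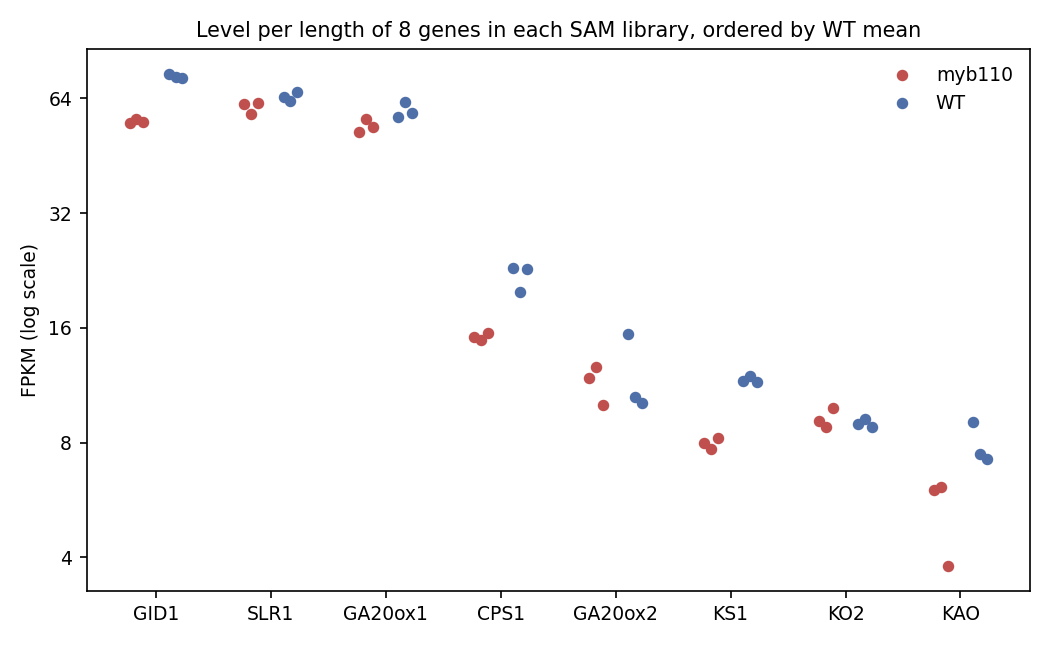
FPKM of 8 gibberellin genes in each SAM library on a log axis, ordered by WT mean, with myb110 left of WT for each gene. GID1, SLR1 and GA20ox1 lie above 50 FPKM in all 6 libraries, and the other 5 genes lie below 24 FPKM.

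The rest of the pathway was read from a wider list of 29 loci, of which 26 were present and annotated as the intended kind of gene. Of these, 14 had enough counts, 1 rose, 1 fell and 12 did not pass, with a median log2 change of 0.10. Over all genes tested 22.6% changed, so this count is no result about the list. Both that changed belong to the gibberellin 2-oxidases, which inactivate the hormone, and 7 of the 9 listed loci of that class were tested. The locus listed as GA2ox4 (Os05g0514600, annotated GA2OX3) had 4.34, 3.00 and 3.60 CPM in the myb110 libraries, against 5.79, 5.78 and 6.38 CPM in the WT libraries. The groups did not overlap, and it fell by 0.72 ± 0.19 on the log2 scale (edgeR adjusted p = 0.00384).

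The locus listed as GA2ox7 (Os01g0209700, also annotated GA2OX3) went the other way. It had 7.18, 6.35 and 7.31 CPM in the myb110 libraries, against 4.55, 3.94 and 6.08 CPM in the WT libraries, a small gap above WT replicate 3. It rose by 0.52 ± 0.17 on the log2 scale (edgeR adjusted p = 0.0274). The call was lost in DESeq2 (adjusted p = 0.0800), in limma on FPKM and in edgeR when myb110 replicate 1 (0.0741), myb110 replicate 3 (0.107), WT replicate 1 (0.0825) or WT replicate 2 (0.171) was left out. Its adjusted p over all alternatives lay between 0.00586 and 0.171. The counts of this locus were not whole in any of the 6 libraries, and several 2-oxidase loci carry the same symbol. Counts that were not whole also occurred for CPS1 and GID1, in 5 libraries each, and for GA20ox2, in 4.

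The other 5 tested loci of that class did not pass. Among them GA2ox1 (Os05g0158600) had the highest CPM of the listed loci, with 9.08 ± 0.829 CPM in myb110 and 8.38 ± 0.194 CPM in WT (SD, n = 3 each) and a log2 change of 0.11 ± 0.13. Summed over the 9 listed loci, 2-oxidase message was between 26.9 and 29.9 CPM in myb110 libraries and between 26.4 and 29.8 CPM in WT libraries, so the ranges overlapped. Outside the list, Os01g0830500, whose description names a 2-oxidase of another grass, had 28.2 CPM in myb110 and 27.2 CPM in WT on average and a log2 change of 0.05 ± 0.08. Also outside it, GA2OX8 (Os04g0407800) had 6.88 ± 1.19 CPM in myb110 and 6.02 ± 0.235 CPM in WT and did not pass. GA2OX5 (Os07g0103500) had 8 counts over the myb110 libraries and 0 over the WT libraries, too few to test. The sum above leaves out these loci, so it covers only part of the class. GA20ox4 (Os05g0421900), another 20-oxidase gene, had 4.28 ± 0.386 CPM in myb110 and 4.05 ± 0.869 CPM in WT. It is annotated 20ox2, the same symbol that GA20ox2 carries. The phytoalexin synthases CPS2, CPS4, KSL4, KSL8 and KSL10, relatives of CPS1 and KS1 that make defence diterpenoids, had 0 counts in all 6 libraries. A sixth, KSL7, had 2 counts over the myb110 libraries and 16 over the WT libraries. EUI1 (Os05g0482400), listed as a gibberellin 16,17-epoxidase, had 4 counts over the myb110 libraries and 18 over the WT libraries. Both had too few counts to test.

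None of the signalling genes of the wider list passed. SPY, a glycosyltransferase gene that restrains gibberellin responses, had 299 ± 0.548 CPM in myb110 and 306 ± 8.75 CPM in WT and a log2 change of -0.03 ± 0.03. EL1 (annotated HD16), a casein kinase that acts on SLR1 in rice, had 106 ± 3.31 CPM in myb110 and 98.0 ± 2.43 CPM in WT (SD, n = 3 each). Its log2 change was 0.11 ± 0.04 (edgeR adjusted p = 0.0645). GAMYB, the MYB factor of gibberellin-induced genes in cereal aleurone, had a log2 change of 0.04 ± 0.10, and the DELLA-like gene SLRL1 one of -0.13 ± 0.12.

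Beyond the lists, 11 more genes carry gibberellin in their description, and of the 7 with enough counts 3 fell and none rose, where 11.7% of all genes fell and 10.9% rose. GAST1 (Os06g0266800, described as gibberellin-regulated protein 5) had 61.0, 62.1 and 56.1 CPM in the myb110 libraries, against 92.7, 92.7 and 106 CPM in the WT libraries. It fell by 0.70 ± 0.05 on the log2 scale (edgeR adjusted p = 1.73e-12). CIGR1 and CIGR2 are GRAS-family genes named for induction by chitin and gibberellin in rice cells. CIGR1 had 43.9 ± 0.987 CPM in myb110 and 53.3 ± 0.371 CPM in WT and fell by 0.28 ± 0.06 (edgeR adjusted p = 0.000242). CIGR2 had 29.5 ± 1.21 CPM in myb110 and 35.0 ± 0.788 CPM in WT and fell by 0.25 ± 0.07 (edgeR adjusted p = 0.00928). The CIGR2 call was lost in limma on FPKM where the log2 change was -0.13 with a pseudocount of 1 and -0.14 with 0.1, and in edgeR without myb110 replicate 2 (adjusted p = 0.0548), and its adjusted p over all alternatives lay between 0.00833 and 0.194.

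The most abundant gene described this way, Os04g0465300 (gibberellin-regulated protein 14), had 322 ± 1.36 CPM in myb110 and 341 ± 19.2 CPM in WT (SD, n = 3 each) and did not pass (edgeR adjusted p = 0.0590). It passed without WT replicate 2 (adjusted p = 0.00733) and with no filter on low counts (0.0361).

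**Figure D4:**
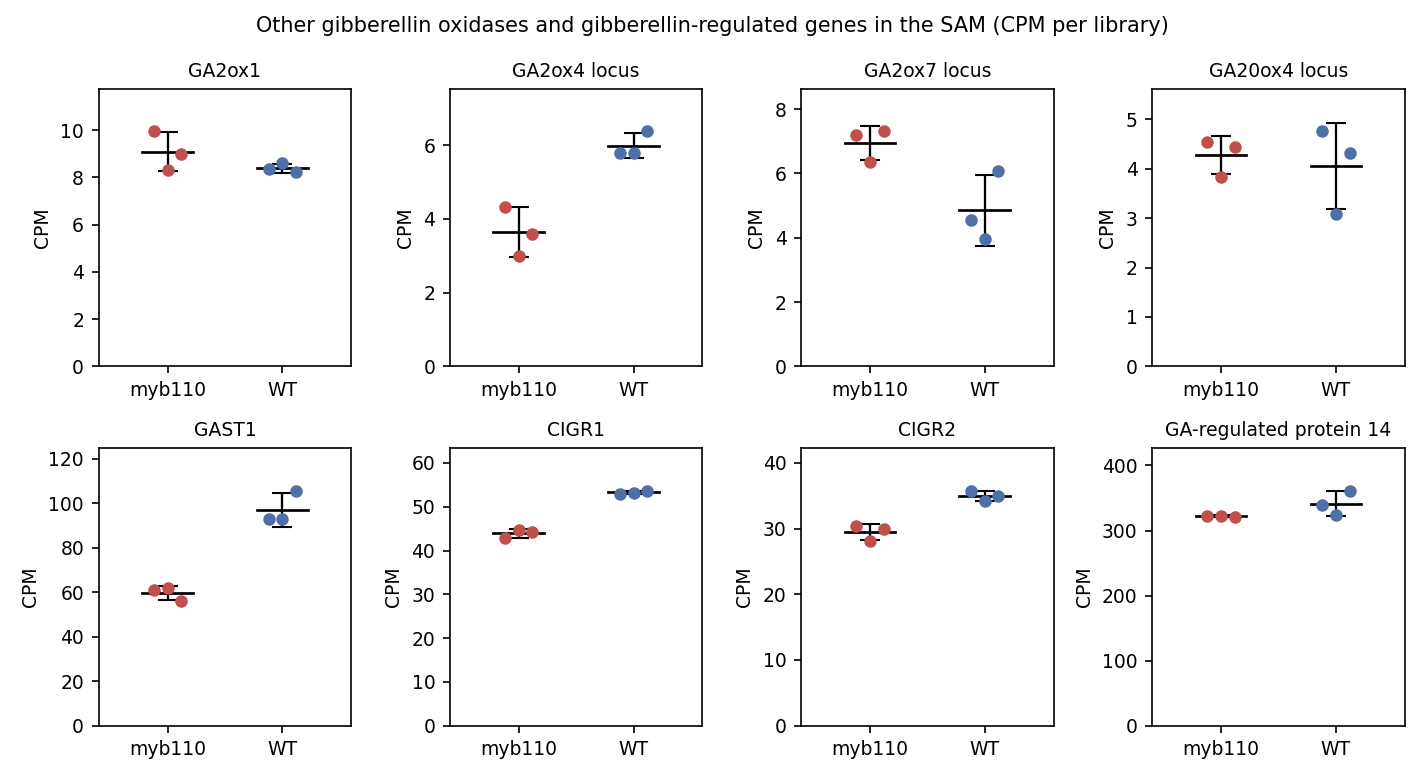
CPM (vertical axes, from 0) of 8 further gibberellin genes in each SAM library, myb110 left of WT, with the mean ± SD of 3 libraries. The GA2ox4 locus, GAST1, CIGR1 and CIGR2 are lower in all 3 myb110 libraries, the GA2ox7 locus is higher, and GA2ox1 and GA20ox4 overlap.

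The annotated diterpenoid biosynthesis pathway holds 6 of the 9 genes. It has 53 genes in the table, 27 of them with 0 counts in all 6 libraries, and 13 were tested. Of the 13, 5 fell, 1 rose and 7 did not pass, where 11.7% of all genes fell and 10.9% rose. This count includes falls of the 9 genes already given above, so it is no separate result. Without the 6 shared genes, 1 fell, 1 rose and 6 did not pass, near the 22.6% that changed over all genes, and those that changed were the GA2ox4 and GA2ox7 loci.

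Loci that lie next to these genes by locus number changed about as often as genes at large. Over the 10 nearest tested loci on each side of each of the 8 genes, 20 of 160 fell and 18 rose, or 12.5% and 11.3%, against 11.7% and 10.9% over all genes. Of the 20 neighbours of CPS1 6 fell, and so did 6 of the 20 of GID1, a larger share than the 11.7% over all genes. The median log2 changes of these neighbours were -0.03 and -0.01. Of the 20 neighbours of KS1 none fell. What lies behind these differences was not tested.

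The genes whose pattern over the 6 SAM libraries came closest were found by the root mean square difference of log2 CPM, each gene centred on its mean. For KS1 the closest annotated gene was LHY (Os08g0157600), the locus of Nhd1, at a difference of 0.0207, against a median of 0.301 over annotated tested genes. The closest of many genes is bound to lie below that median. The second was GSTZ5 at 0.0250. For GID1 they were an XTH gene of cell wall remodelling (Os11g0539200) at 0.0162 and HSP17.9A (Os03g0266300) at 0.0192. CPS1 lay closest to a FAF-like gene (Os03g0261800) at 0.0338 and OFP8 (Os11g0156401) at 0.0411, and KAO, with its wider spread, to MEL1 (Os03g0789466) at 0.0766 and CEP1 at 0.0983.

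The other genes had such neighbours too. GA20ox1 lay closest to CPSF73-I at 0.0127 and TRAPPC3 at 0.0151, and GA20ox2 to Os12g0566800 at 0.0580 and Os06g0103200 at 0.0722. KO2 was closest to VIP2 at 0.0161 and MNS1 at 0.0172, and SLR1 to EMB1187 at 0.0167 and Os02g0178400 at 0.0177. KO2 and SLR1, which did not pass the test, thus had closer matches than KS1 had in LHY. With 6 libraries and many genes, close matches of this kind are a description only.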

How the data were processed

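Poly(A)-enriched RNA was copied with random primers into libraries, per the labels' protocols. Per the submitters' processing notes, fastp was used on the reads. No source used here names the aligner, counter, genome build, annotation or use of strand, so overlapping genes are uncertain. The deposited SAM table gives, per the file headers, estimated counts per gene and library, of which 12.3% to 13.2% were not whole. It also gives the authors' FPKM, which scale by gene length and depth. Genotype and number in the column names tied columns to samples, and the tissue rests on the table's name. The 2 tables hold 24 further columns of sample values, 6 of them for the SAM, that were left unused. The 6 for the SAM match no labelled sample.

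Counts were rounded, which moved no count of these genes by more than 0.43. Genes were kept by filterByExpr (minimum count 10), scaled by TMM and compared by the quasi-likelihood test of edgeR 4.0.16 (robust dispersion, R 4.3.3), with Benjamini-Hochberg adjustment over 23167 genes and a threshold of 0.05. Log2 changes are myb110 over WT, and their SE is the absolute change over the square root of F. CPM use TMM-scaled totals of the kept genes. DESeq2 1.42.0 and limma 3.58.1 on log2(FPKM + 1) or log2(FPKM + 0.1) were alternatives, and the steps were tested on simulated counts. P-values measure the spread between pools of plants, whose independence beyond pooling is not described. Replicates of a genotype differed by more than counting noise (chi-square of 2.15 to 2.63 per gene).

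The 9 genes and the lists were chosen with earlier results of these data known. The rule names all 9, the wider-list and gibberellin-described genes that passed, the most abundant of each enzyme class, and the 2 closest patterns per gene. Genes named beyond it, after their values were seen, were the signalling genes, the phytoalexin synthases, GA20ox4, GA3ox1, GA2OX5, GA2OX8 and Os04g0465300. So were EUI1, GA2ox2, CYP714B2, Os06g0729400, the other CYP701A loci and the markers named singly. The locus taken as MYB110, the FPKM ratios with their permutation tests and the loci next to the genes also lay outside the rule. From the wider list, the locus entered for GID2 and that for KO1 were dropped because the table annotates them as other genes, and that for KO4 was absent. Counting intervals cover counting error only. No sequence is printed, since none was given with the reference used here.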

Additional observations from a re-analysis of the deposited data

How the results depend on the processing

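The count of gibberellin synthesis and perception genes that changed was 5 in the main edgeR test, with DESeq2 size factors, with no filter on low counts and with the replicate block. It was 4 in DESeq2 and in limma on log2(FPKM + 1) or log2(FPKM + 0.1), 3 in limma on log2(FPKM + 1) with no filter, and 4 to 5 without one library each. The calls of CPS1, KS1 and GID1 held in all 13 alternatives. The count over the wider list was 2 in the main test and 1 in DESeq2, in limma on log2(FPKM + 1), on log2(FPKM + 0.1) and on log2(FPKM + 1) with no filter, and 1 to 2 without one library each. Over all genes 5233 passed, 3556 to 5584 under the other settings and 4185 to 4698 without one library each.

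Signs turned for genes that did not pass, with log2 changes without one library each from -0.0072 to 0.084 for KO2, -0.17 to 0.14 for GA20ox2, -0.078 to 0.22 for GA20ox4, -0.030 to 0.20 for GA2ox2, -0.26 to 0.40 for CYP714B2, -0.036 to 0.15 for GAMYB and -0.24 to 0.043 for Os06g0729400. The cause was not tested. In the replicate block fit, 4976 genes passed. Libraries of the same number share no stated source, and their deviations from the group means correlated at -0.05, -0.04 and 0.01 across genes, so the numbers were not taken as pairs. Libraries 1 and 2 of each genotype did not correlate best with their own number. Depth limits GA3ox2, which had 4 counts in myb110 and 3 in WT.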
